A study of Mus musculus with 1 sample.

Results

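The 49 genes described here serve the last part of the cell cycle, from G2 to the end of mitosis, and were taken by symbol from a fixed list of mitosis and G2/M genes. All 49 were found among the 32285 genes of the count matrix, and all are protein-coding in GENCODE M21. They were measured by single-cell RNA-seq in 1 library of lineage-negative, Kit-positive bone marrow cells sorted from the femora and tibiae of C57BL/6 mice. These control mice were Brd9 fl/fl and had received pIpC (polyinosinic-polycytidylic acid, which induces interferon and is used to switch on Mx1-Cre) at 20 mg/kg in 3 doses, 8 weeks before the cells were taken. Brd9 codes for a subunit of a chromatin remodelling complex. The labels name a CD45.2(+) Brd9 fl/fl donor and a CD45.1(+) CD45.2(-) recipient, whereas the methods describe mice without a transplant, and the 2 accounts were not reconciled. Neither source used here gives the age or the number of mice behind this library. The library of Cre-deleted cells was not analysed here.

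Cells that leave S phase build up cyclin A and cyclin B, which switch on the kinase CDK1. The chromosomes then condense, kinetochores form on the centromeres and bind spindle microtubules, and a checkpoint holds the cell until every chromosome is attached. The anaphase-promoting complex next marks the cyclins for destruction, and cytokinesis parts the daughters. Most of these transcripts are made late in the cycle and are low in resting cells, so their sum is often used to find dividing cells. In the marrow, long-term stem cells are known to rest most of the time, whereas erythroid progenitors divide rapidly before they leave the cycle. Megakaryocytes are known to turn to endomitosis, in which the chromosomes are copied and separated without cytokinesis.

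The library held 8817 barcodes, of which 7645 passed the study's cell filter, with a median of 18696 UMIs (unique molecular identifiers, each counting 1 RNA molecule) per cell. Kit, the sort marker, had a UMI in 65.8% of these cells, and Cd3e and Ly6g, which mark mature T cells and neutrophils, had 5 and 7 UMIs in all. Itgam, which codes for CD11b of myeloid cells, had a UMI in 10.6% of the cells and Klrb1c, a natural killer cell marker, in 2.04%. Because cells differed in depth, each cell was thinned at random to 5000 UMIs, which left out 99 shallower cells. Levels are given as thinned UMIs per 1000000 UMIs (CPM), summed over the cells of a group, with an exact Poisson 95% interval. Ratios have an exact conditional binomial interval and shares of cells a Clopper-Pearson interval. These intervals cover counting error only. With 1 library there was no replicate and no test was possible, so no difference below has been set against the spread between mice. UMIs come from the 3′ end of a transcript and are not expected to grow with gene length. Whether different genes were captured alike was not checked, so levels are set side by side between genes with caution.

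Cells were sorted into 19 gates by marker genes. A gate is named like a cell type only for the markers it uses, and none of the 49 genes is among them. A stem-like cell had at least 3 of 8 markers such as Hlf, Mecom and Procr at 4 or more UMIs per 10000, and an erythroid-like cell at least 4 markers at 10 or more UMIs per 10000. Erythroid-like cells were split by late genes such as Alas2, which codes for an enzyme of haem synthesis, with under 2 UMIs per 10000 called early and 5 or more called late. Neutrophil-like cells were split by S100a8 and S100a9, and monocyte-like cells by Fn1 and Tgfbi. Of the cells, 6379 (83.4%) fell in 1 gate, 946 in none and 320 in several, and the last 2 kinds were left out of the gates. Hlf had 452 CPM at full depth in stem-like cells and 1.93 CPM in erythroid-like cells, and Pf4 had 8113 CPM in megakaryocyte-like cells.

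At 5000 UMIs a cell, the 49 genes together were lowest in stem-like cells and highest in late erythroid-like cells. Their summed level was 2775 CPM (2724 to 2826) in the 830 stem-like cells and 13912 CPM (13759 to 14067) in the 453 late erythroid-like cells, a ratio of 5.01 (4.91 to 5.12). All other gates lay between these values. The low end of this order turned with thinning to 10000 UMIs a cell, which kept only deeper cells: stem-like cells then had 5122 CPM and neutrophil-like cells 4626 CPM. Cells of the Flt3 multipotent gate, an early step towards lymphoid and myeloid cells, had 4785.5 CPM, lymphoid-like cells 5481 CPM and granulocyte-monocyte progenitor-like cells 5272 CPM. The neutrophil-like cells were low at each step, with 4534 CPM early, 4782 CPM in the middle and 4468 CPM late. Monocyte-like cells had 6393, 6783 and 8579 CPM from early to late. Plasmacytoid dendritic-like cells reached 8602 CPM, and the conventional dendritic-like and basophil or mast-like gates 6969 and 6763 CPM. Megakaryocyte-like cells, pre-megakaryocyte-erythroid-like cells and early erythroid-like cells had 6112, 6062 and 6826 CPM. Middle erythroid-like cells had 8967 CPM. The intervals leave out the spread between cells, so gates with separate intervals are not thereby told apart. A second random thinning gave 2716 CPM in stem-like cells, outside their interval. In this order, many neighbours had overlapping intervals and are not told apart even by counting error. From the bottom, these were early and late neutrophil-like cells, middle neutrophil-like cells and the Flt3 multipotent gate, and granulocyte-monocyte progenitor-like and lymphoid-like cells. Higher up they were pre-megakaryocyte-erythroid-like and megakaryocyte-like cells, then basophil or mast-like, middle monocyte-like, early erythroid-like and conventional dendritic-like cells, and last late monocyte-like and plasmacytoid dendritic-like cells. The plasmacytoid dendritic-like interval also met that of middle erythroid-like cells by a small margin. The 36 eosinophil-like cells had 4339 CPM (4040 to 4654), which overlaps with early and late and, by a small margin, middle neutrophil-like cells.

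**Figure D1:**
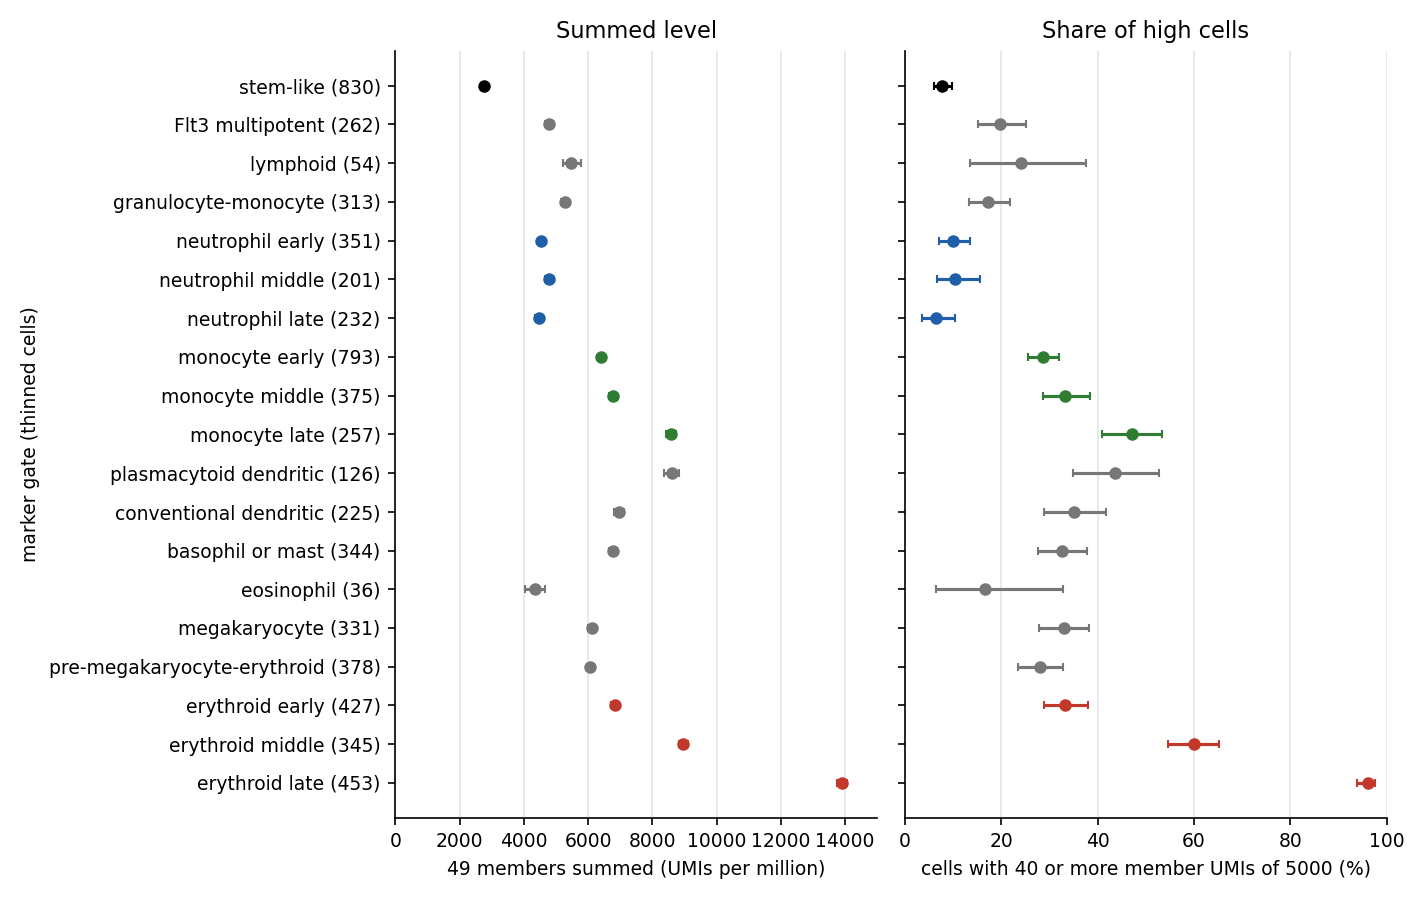
Left, summed level of the 49 genes in each of 19 marker gates (CPM, after thinning to 5000 UMIs a cell), with exact 95% Poisson intervals; right, the share of cells with 40 or more of these UMIs, with exact 95% binomial intervals. Numbers in brackets are thinned cells; the late erythroid-like gate stands apart at 13912 CPM and 96.0%, and the stem-like gate is lowest on the left at 2775 CPM, which did not hold at 10000 UMIs a cell.

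A difference in the mean can come from how many cells carry the transcripts or from how much each cell carries. Over all 7546 thinned cells, the sum ran from 0 to 182 UMIs with a median of 23, and the distribution had no gap. A cell was called high at 40 or more of its 5000 UMIs. This cut divides a range and does not define a cell type, and 780 cells lay within 5 UMIs of it. High cells made up 7.71% (5.99 to 9.74) of stem-like cells, 9.06% (7.14 to 11.3) of neutrophil-like cells, 33.3% (30.8 to 35.8) of monocyte-like cells and 96.0% (93.8 to 97.6) of late erythroid-like cells. The order of the stem-like and neutrophil-like shares depended on the thinning depth, which also sets the cells that are kept, and on the cut. Thinning to 10000 UMIs, with the cut scaled to match, gave 20.6% (16.1 to 25.7) of stem-like and 9.64% (7.64 to 11.97) of neutrophil-like cells. At 5000 UMIs, the neutrophil-like share was the higher with a cut of 30 UMIs and the stem-like share with a cut of 50, without overlap of the intervals. The stem-like share was 12.7% with a stricter cell filter, 3.91% with stricter gates and 3.72% among cells of 8000 to 15000 UMIs before thinning. In the stem-like gate the 64 high cells had 16763 CPM and the remaining cells 1606 CPM. In the neutrophil-like gate the 71 high cells had 9848 CPM and the remaining cells 4053 CPM. No other gate had a higher level in its high cells or a lower level in its other cells than the stem-like gate. In late erythroid-like cells even the lowest cell had 29 UMIs, above the median of 7 UMIs of the stem-like gate.

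Depth before thinning was examined in 9 groups of cells, and in 8 of them the deeper cells had the higher level. The deeper 415 stem-like cells (median 11732 UMIs) had 4195 CPM and the shallower 415 (median 7591 UMIs) had 1354 CPM, a ratio of 3.10 (2.97 to 3.23). The same ratio was 3.27 (3.13 to 3.41) for pre-megakaryocyte-erythroid-like cells, 2.55 (2.41 to 2.70) for the Flt3 multipotent gate, 1.30 (1.26 to 1.34) for neutrophil-like cells and 0.97 (0.95 to 0.996) for late erythroid-like cells. Thinning equalises the UMIs that are read and not the size or RNA content of the cells. Thinning to 10000 UMIs kept 296 stem-like cells and gave a level of 5122 CPM there. Among cells of 8000 to 15000 UMIs, the stem-like gate had 2160.0 CPM and the erythroid-like gate 6560 CPM, a ratio of 3.04 (2.90 to 3.18) over 430 and 101 cells.

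**Figure D2:**
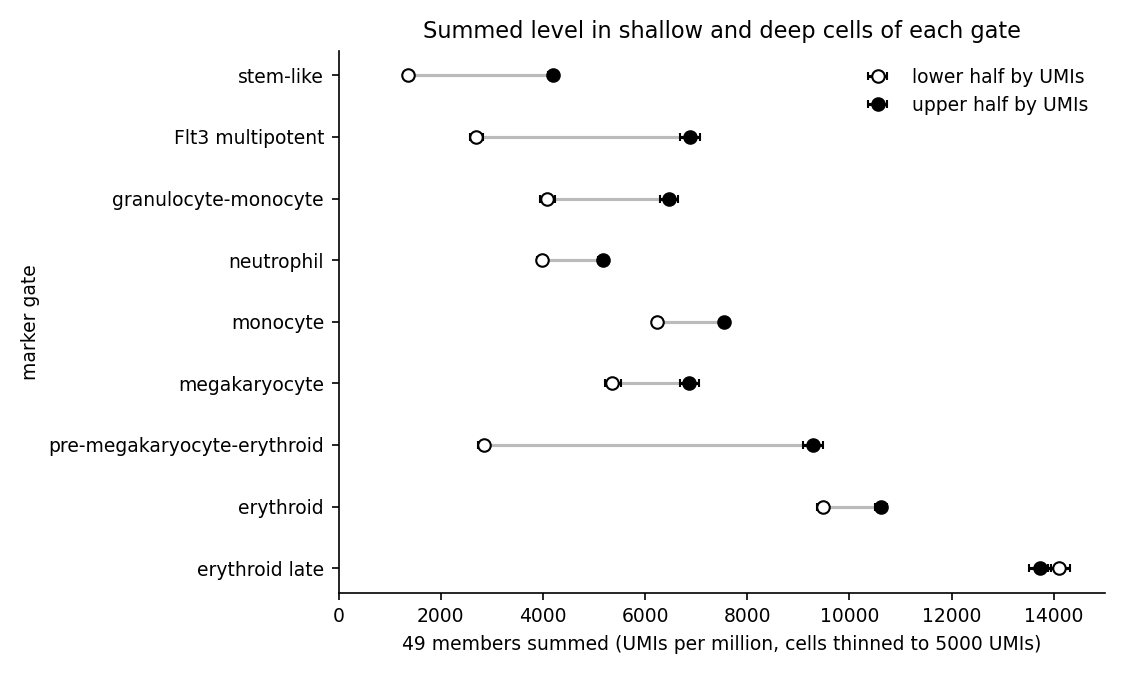
Summed level of the 49 genes (CPM after thinning) in the shallower (open circles) and the deeper cells (filled circles) of 9 gates or pooled lineages, each split at its median depth, with exact 95% Poisson intervals. The circles stand far apart in the stem-like, Flt3 multipotent and pre-megakaryocyte-erythroid-like gates, and nearly coincide in late erythroid-like cells.

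Against the stem-like gate, a gene was counted as higher or lower from a 2-fold ratio on, among genes with at least 50 UMIs over both gates. In erythroid-like cells of all steps, 43 of the 49 members were higher and 1 was lower, where 12.9% of the 9836 genes examined were higher. The members' median ratio was 4.02, and that of all genes 0.85. The corresponding counts were 40 of 46 members in plasmacytoid dendritic-like cells (background 9.28%), 37 of 49 in monocyte-like cells (10.2%), 37 of 46 in megakaryocyte-like cells (4.69%) and 35 of 46 in pre-megakaryocyte-erythroid-like cells (3.41%). They were 34 of 45 in conventional dendritic-like cells (9.39%), 32 of 46 in basophil or mast-like cells (7.63%), 22 of 39 in lymphoid-like cells (6.22%), 21 of 46 in granulocyte-monocyte progenitor-like cells (7.29%) and 18 of 46 in the Flt3 multipotent gate (3.37%). The neutrophil-like gate had the smallest share, with 15 of 47 members higher (7.52%) and 3 lower, where 34.8% of all genes were lower. Elsewhere 0 members were lower in the Flt3 multipotent (background 9.87%), monocyte-like (25.2%), plasmacytoid (22.3%) and conventional dendritic-like (25.0%), megakaryocyte-like (12.7%) and pre-megakaryocyte-erythroid-like gates (8.48%), 1 in the lymphoid-like (20.9%), granulocyte-monocyte (27.8%) and erythroid-like gates (28.7%), and 2 in the basophil or mast-like gate (19.8%). These counts depend on the depth and on the cells that it keeps. At 10000 UMIs a cell, 21 members were higher in erythroid-like cells, 19 in plasmacytoid and 20 in conventional dendritic-like cells, 3 in monocyte-like cells and 1 in megakaryocyte-like cells. Among cells of 8000 to 15000 UMIs, a choice made after seeing the data, they were 28, 28, 31, 33 and 12. In the Flt3 multipotent and lymphoid-like gates the counts were 0 and 5 at 10000 UMIs, and 4 and 15 among cells of 8000 to 15000 UMIs.

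Among members with at least 50 UMIs over both gates, Gas2l3 or G2e3 had the lowest ratio in each of these gates; Ect2, described below, was lower in megakaryocyte-like cells but had too few UMIs to be counted. The highest ratios are likewise given among members with enough UMIs. Bub1 was the highest member in the Flt3 multipotent gate (3.05-fold, 1.71 to 5.43), neutrophil-like and monocyte-like cells (5.48-fold, 3.68 to 8.48). Aurkb was the highest in lymphoid-like (3.96-fold, 2.18 to 6.83) and plasmacytoid dendritic-like cells (6.49-fold, 4.53 to 9.28), where Tacc3, which binds spindle microtubules, was next (6.20-fold, 4.34 to 8.85). Cdca3 led in granulocyte-monocyte progenitor-like (4.10-fold, 3.11 to 5.42) and conventional dendritic-like cells (5.58-fold, 4.23 to 7.38). Ect2 led in basophil or mast-like cells (5.32-fold, 3.50 to 8.23), Ckap2l in megakaryocyte-like cells, and Nuf2, a kinetochore subunit, in pre-megakaryocyte-erythroid-like cells (4.11-fold, 2.61 to 6.57).

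**Figure D3:**
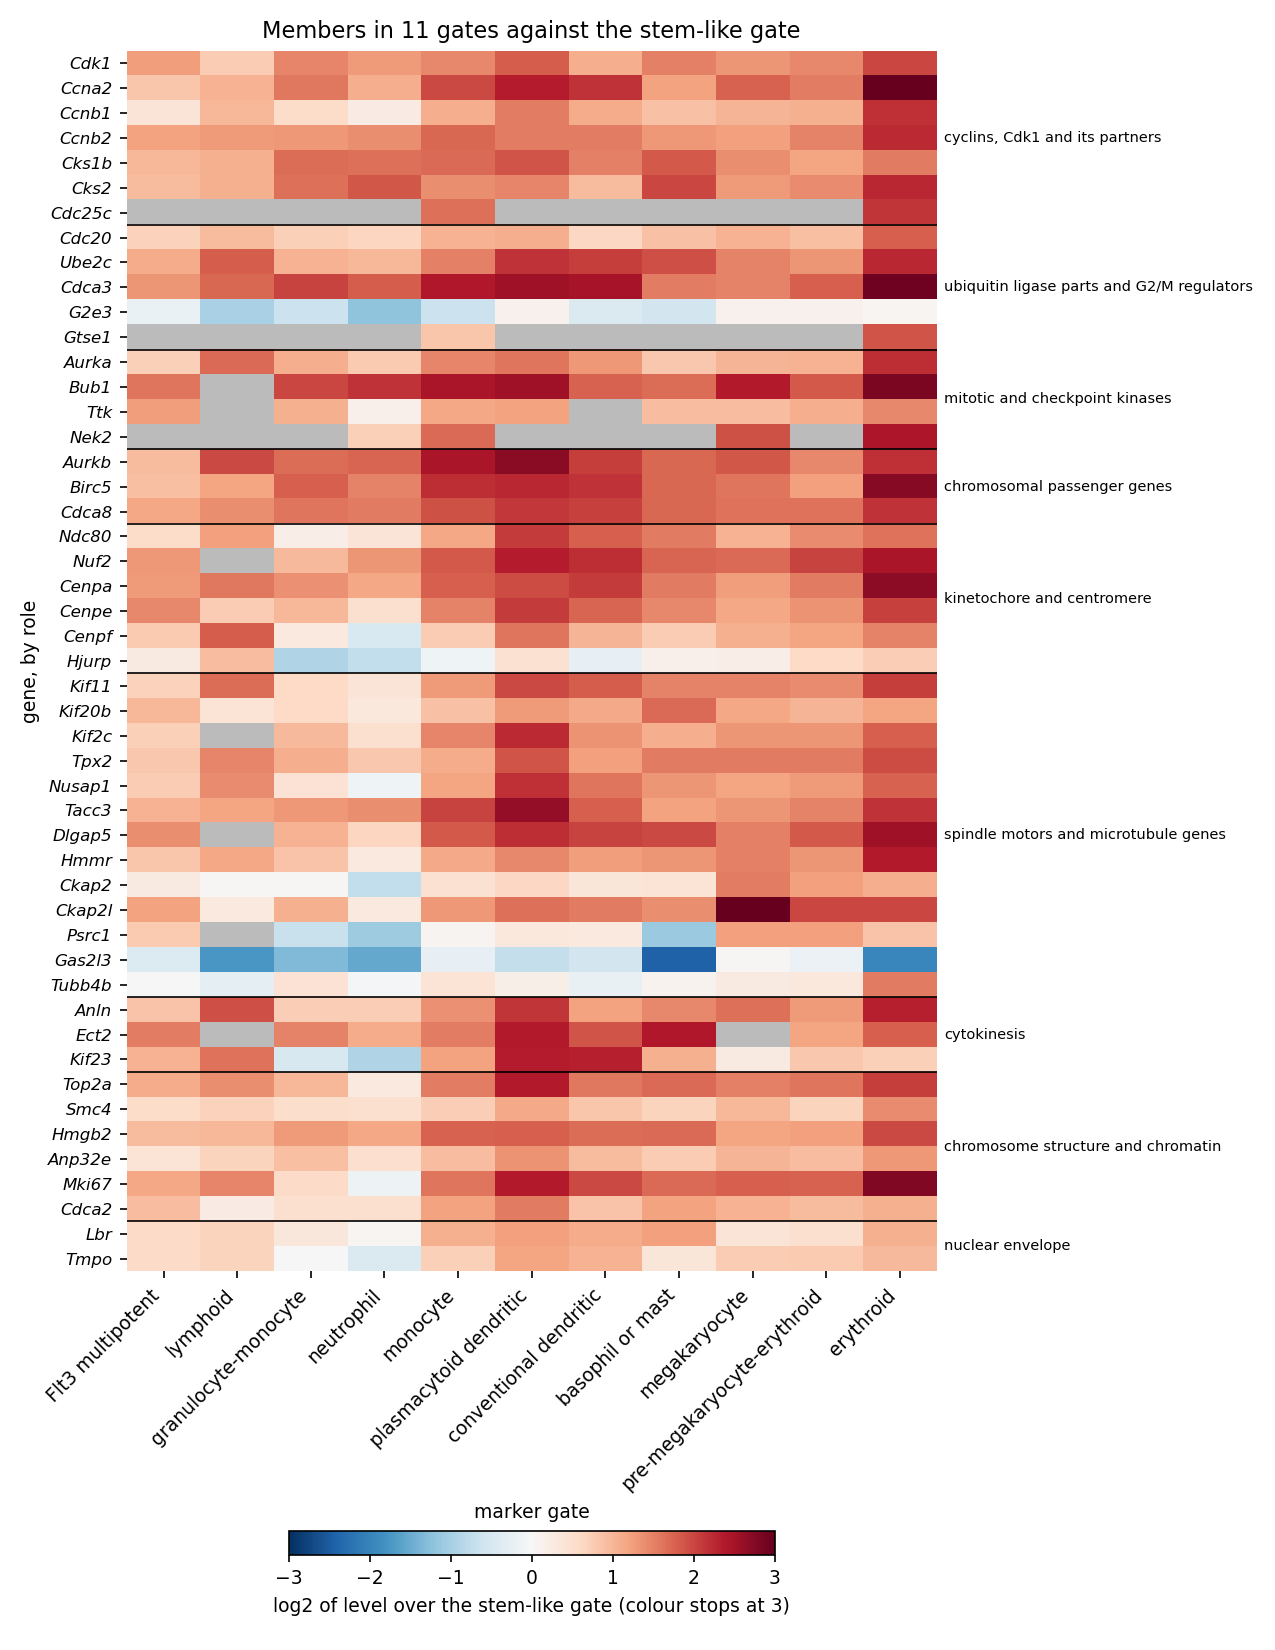
Level of each of the 49 genes in 11 gates over its level in the stem-like gate, on a log2 scale, with genes grouped by role; red is higher, blue lower, and grey marks pairs with under 50 UMIs over both gates. The erythroid-like column is the reddest, and the rows of Gas2l3 and G2e3 are pale or blue in most gates.

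Cyclins, CDK1 and its partners formed the first role group, with 7 genes. Ccna2, which codes for cyclin A2, had the highest erythroid-like ratio of all members, with 158 CPM against 19.8 CPM in stem-like cells (8.01-fold, 6.39 to 10.2). Cdk1, the mitotic kinase itself, had 41.4 CPM in stem-like, 99.7 CPM in neutrophil-like and 167 CPM in erythroid-like cells. The B cyclins Ccnb1 and Ccnb2 were close in stem-like cells (28.0 and 32.3 CPM) and in erythroid-like cells (128 and 152 CPM). They differed in neutrophil-like cells, where Ccnb2 had 84.9 CPM (2.63-fold over stem-like, 2.15 to 3.24) and Ccnb1 33.4 CPM (1.20-fold, 0.92 to 1.55). Cks1b and Cks2 code for the small subunits that bind CDK kinases. Cks2 reached 413 CPM in neutrophil-like and 549.7 CPM in erythroid-like cells against 114 CPM in stem-like cells. Cks1b had 269 and 249.8 CPM there, against 85.3 CPM, so this gene was not lower in neutrophil-like than in erythroid-like cells. Cdc25c, a phosphatase that activates CDK1, was rare everywhere, with 3.37 CPM in stem-like and 14.9 CPM in erythroid-like cells.

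Of the genes of the anaphase-promoting complex and related regulators, Ube2c, its ubiquitin-conjugating enzyme, had 62.4 CPM in stem-like, 124 CPM in neutrophil-like and 301 CPM in erythroid-like cells. Cdc20, the activator that names its targets, had 36.4, 56.9 and 126 CPM, and Cdca3 21.2, 74.2 and 159 CPM. G2e3, a ubiquitin ligase, was flat between stem-like and erythroid-like cells (28.9 and 29.9 CPM, ratio 1.03, 0.82 to 1.31) and lower in neutrophil-like cells (12.5 CPM, 0.43-fold, 0.30 to 0.61). Among the mitotic kinases, Bub1, which acts in the spindle checkpoint, was 4.47-fold higher in neutrophil-like cells (2.92 to 7.08) and 7.10-fold higher in erythroid-like cells (4.78 to 10.97), from 6.51 CPM in stem-like cells. Aurka, a kinase of the spindle poles, had 12.5, 21.7 and 58.0 CPM in the same order, and Ttk, another checkpoint kinase, 8.92, 9.95 and 24.2 CPM. Aurkb, the paralogue of Aurka and the kinase of the chromosomal passenger complex, stood at 15.9, 53.1 and 73.0 CPM. Aurkb was highest in late monocyte-like cells (116 CPM) and Aurka in late erythroid-like cells (98.0 CPM). The passenger subunits Birc5 (survivin) and Cdca8 (borealin) went from 50.6 to 338 CPM and from 44.8 to 201 CPM between stem-like and erythroid-like cells.

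The kinetochore and centromere genes divided in neutrophil-like cells. Cenpa, the centromeric histone, was 2.25-fold higher there than in stem-like cells (1.90 to 2.67). Hjurp, the chaperone that loads CENP-A, was 0.60-fold (0.51 to 0.70), with 58.4 against 97.8 CPM, and Cenpf, a large kinetochore protein, was 0.72-fold (0.59 to 0.89), which turned to 1.08-fold (0.83 to 1.40) with stricter gates. In erythroid-like cells the 3 genes were 6.37-fold, 1.67-fold and 2.80-fold higher. Of the spindle genes, Tubb4b, a β-tubulin, lay between 306 and 433 CPM in the Flt3 multipotent, granulocyte-monocyte, neutrophil-like, monocyte-like and megakaryocyte-like gates and reached 944 CPM in erythroid-like cells. Tpx2, which activates Aurora A, went from 32.05 CPM in stem-like to 124 CPM in erythroid-like cells, and Hmmr from 29.9 to 154 CPM. The motors Kif11, Kif20b and Kif2c, and Cenpe of the kinetochore, were between 2.29-fold and 4.19-fold higher in erythroid-like cells and between 1.25-fold and 1.40-fold in neutrophil-like cells. Without thinning, Kif11, Kif20b and Cenpe were not higher there, with 38.1, 38.3 and 39.2 CPM in neutrophil-like against 46.7, 45.3 and 44.6 CPM in stem-like cells. Tacc3 was 2.65-fold higher in neutrophil-like cells (1.99 to 3.56) and Ckap2 0.60-fold (0.38 to 0.93). Nek2, Gtse1 and Kif2c had under 10 CPM in stem-like cells.

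Hmgb2, a DNA-bending chromatin protein, was the most abundant member and made up between 18.9% of the summed UMIs in stem-like cells and 28.4% in late neutrophil-like cells. It went from 524 CPM in stem-like to 2073 CPM in erythroid-like cells. Smc4, a condensin subunit, had 137 and 368 CPM. Without Hmgb2, the erythroid-like sum was still 3.54-fold above the stem-like sum, against 3.62-fold with it. Mki67, the proliferation antigen that coats mitotic chromosomes, had 1147 CPM in late erythroid-like and 78.4 CPM in late neutrophil-like cells. In neutrophil-like cells as a whole it had 90.6 CPM, near the 101 CPM of stem-like cells (0.89-fold, 0.77 to 1.03). Top2a, the topoisomerase that untangles sister chromatids, was 1.22-fold in neutrophil-like cells (1.08 to 1.37) and 4.20-fold higher in erythroid-like cells. Without thinning, neutrophil-like and stem-like cells had 179 and 178 CPM of Top2a, and 101 and 162 CPM of Mki67. Of the nuclear envelope genes, Lbr was 1.05-fold (0.89 to 1.22) and Tmpo 0.75-fold (0.66 to 0.84) in neutrophil-like cells, and they were 2.08-fold and 1.96-fold higher in erythroid-like cells.

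The neutrophil-like cells held a mixed profile, with Cks2, Cks1b, Bub1, Cdca3 and the passenger genes above the stem-like level and Mki67, Cenpf, Hjurp, Kif23, Tmpo, Psrc1, G2e3 and Gas2l3 at or below it. The cyclin and CDK1 group took 21.7% of the summed UMIs in late neutrophil-like cells, against 11.7% in stem-like and 13.5% in late erythroid-like cells. The order of the stem-like and neutrophil-like sums turned with thinning to 10000 UMIs, which leaves out shallower cells and kept 296 stem-like cells. There the ratio was 0.90 (0.89 to 0.92) in place of 1.65 (1.61 to 1.69) at 5000, and 0 members were then 2-fold higher in place of 15. Without thinning, the 841 stem-like cells had 3717 CPM and the 784 neutrophil-like cells 4841 CPM, so the order did not turn. Among cells of 8000 to 15000 UMIs the ratio was 1.67 (1.58 to 1.77).

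Within lineages, the sum was 2.04-fold higher in late than in early erythroid-like cells (1.998 to 2.08), 1.34-fold higher in late than in early monocyte-like cells (1.31 to 1.37), and 0.99-fold in late neutrophil-like cells (0.95 to 1.02). In the erythroid comparison, 30 of 49 members were at least 2-fold higher, against 7.83% of all genes. The monocyte comparison gave 1 of 48 members (2.11%) and the neutrophil comparison 0 of 38 (0.937%). In these comparisons 0 members (background 12.9%), 1 member (2.08%) and 0 members (4.27%) were at least 2-fold lower. Those numbers rest on the size rule alone, since no test was possible. The largest erythroid ratios belonged to Aurka (4.19, 3.07 to 5.81), Dlgap5, a spindle assembly gene (4.08, 3.03 to 5.60), and Ccnb1 (3.72, 3.04 to 4.59). The smallest belonged to Anp32e, a histone chaperone (1.16, 1.05 to 1.30), Cks1b (1.23, 1.09 to 1.39) and Ttk (1.37, 0.92 to 2.06). In the monocyte comparison, Cdc25c had the highest ratio (2.40, 1.41 to 4.04) and Psrc1 the lowest (0.42, 0.15 to 0.99). In the neutrophil comparison, Anln and Cdca2 had the lowest ratios, 0.50 (0.25 to 0.97) and 0.52 (0.28 to 0.93), and the highest, Ndc80, had 1.28 (0.75 to 2.19). Late and early erythroid-like cells also differed in depth, with medians of 32348 and 25896 UMIs before thinning, whose part in the ratio was not tested. Among cells of 8000 to 15000 UMIs the ratio was 2.94 (2.67 to 3.23).

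A few members departed from the rest gate by gate. Gas2l3 codes for a protein that links actin and microtubules and acts at the end of cytokinesis. It lies on chromosome 10 at positions 89408823 to 89443967 (GRCm38, minus strand). With lineage steps pooled and the eosinophil-like gate left out, its levels were highest in megakaryocyte-like and stem-like cells, at 51.4 and 49.9 CPM. Next came pre-megakaryocyte-erythroid-like (44.4), monocyte-like (41.8), Flt3 multipotent (37.4), conventional dendritic-like (33.8) and plasmacytoid dendritic-like cells (30.2), all in CPM. It had 19.8 CPM in granulocyte-monocyte progenitor-like, 17.3 CPM in neutrophil-like and 14.8 CPM in lymphoid-like cells, and was lowest in erythroid-like cells at 12.9 CPM and basophil or mast-like cells at 9.30 CPM. Against stem-like cells these last ratios were 0.26 (0.20 to 0.34) and 0.19 (0.10 to 0.31). Across the 19 gates its level had a Pearson correlation of -0.13 with the sum of the other members, the lowest of the 49 members and next to 0.41 for Ckap2l and 0.46 for Kif23. The gates share 1 library and these values are descriptions. Even so, Gas2l3 was 2.24-fold higher in late than in early erythroid-like cells (1.22 to 4.30), from 7.49 to 16.8 CPM.

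Ect2, which codes for the exchange factor that activates RhoA at the cleavage furrow, was nearly missing from megakaryocyte-like cells. It lies on chromosome 3 at 27097222 to 27153878 (minus strand). The 331 megakaryocyte-like cells held 4 thinned UMIs, or 2.42 CPM (0.66 to 6.19), against 34 UMIs or 8.19 CPM (5.67 to 11.4) in stem-like cells, a ratio of 0.30 (0.076 to 0.83). In the other gates, with lineage steps pooled and the eosinophil-like gate left out, it ranged from 17.6 CPM in neutrophil-like to 43.6 CPM in basophil or mast-like cells. The pre-megakaryocyte-erythroid-like gate had 18.5 CPM. At full depth the megakaryocyte-like gate had 16 UMIs or 2.54 CPM (1.45 to 4.12), and the pre-megakaryocyte-erythroid-like gate 94 UMIs or 18.6 CPM (15.0 to 22.7). The sum of the 49 genes in megakaryocyte-like cells was 2.20-fold above the stem-like sum, and 109 of these cells (32.9%) were high. The 109 high cells held 2 UMIs of Ect2, or 3.67 CPM (0.44 to 13.3), where the other 1870 high cells had 49.8 CPM (45.4 to 54.6), a ratio of 0.074 (0.009 to 0.27).

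Ckap2l, whose product binds spindle microtubules, ran the other way in the same cells. It lies on chromosome 2 at 129268210 to 129297212 (minus strand). With lineage steps pooled and the eosinophil-like gate left out, stem-like cells had 15.2 CPM of it and 10 other gates between 18.5 and 61.2 CPM. The megakaryocyte-like gate had 160.1 CPM (141 to 181). Its ratio to stem-like cells was 10.5 (7.99 to 14.1), the highest of any member in the 11 comparisons with the stem-like gate, in which the steps of a lineage are pooled. It was followed in that gate by Bub1 (5.20, 3.23 to 8.56) and Nek2 (3.76, 2.07 to 6.99). In high cells it was 3.53-fold above the other high cells (2.98 to 4.16), at 319 and 90.4 CPM. Thinning to 10000 UMIs lowered the ratio to stem-like cells to 3.87.

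Kif23, a kinesin of the central spindle, acts in cytokinesis, as Anln and Ect2 do, and lies on chromosome 9 at 61915905 to 61946774 (minus strand). It was highest in plasmacytoid and conventional dendritic-like cells, with 141 and 138 CPM, and low in granulocyte-monocyte progenitor-like (19.8 CPM) and neutrophil-like cells (14.8 CPM), where it lay under the 27.5 CPM of stem-like cells. In erythroid-like cells it had 45.4 CPM. In high cells, Kif23 was 2.70-fold higher in the conventional dendritic-like gate than in the other high cells (2.21 to 3.27) and 0.41-fold in the erythroid-like gate (0.36 to 0.48). Anln, which codes for the scaffold anillin, had 9.64 CPM in stem-like, 30.2 CPM in megakaryocyte-like and 48.3 CPM in erythroid-like cells. Kif23 had 33.2 CPM in megakaryocyte-like cells (1.21-fold, 0.86 to 1.68).

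**Figure D4:**
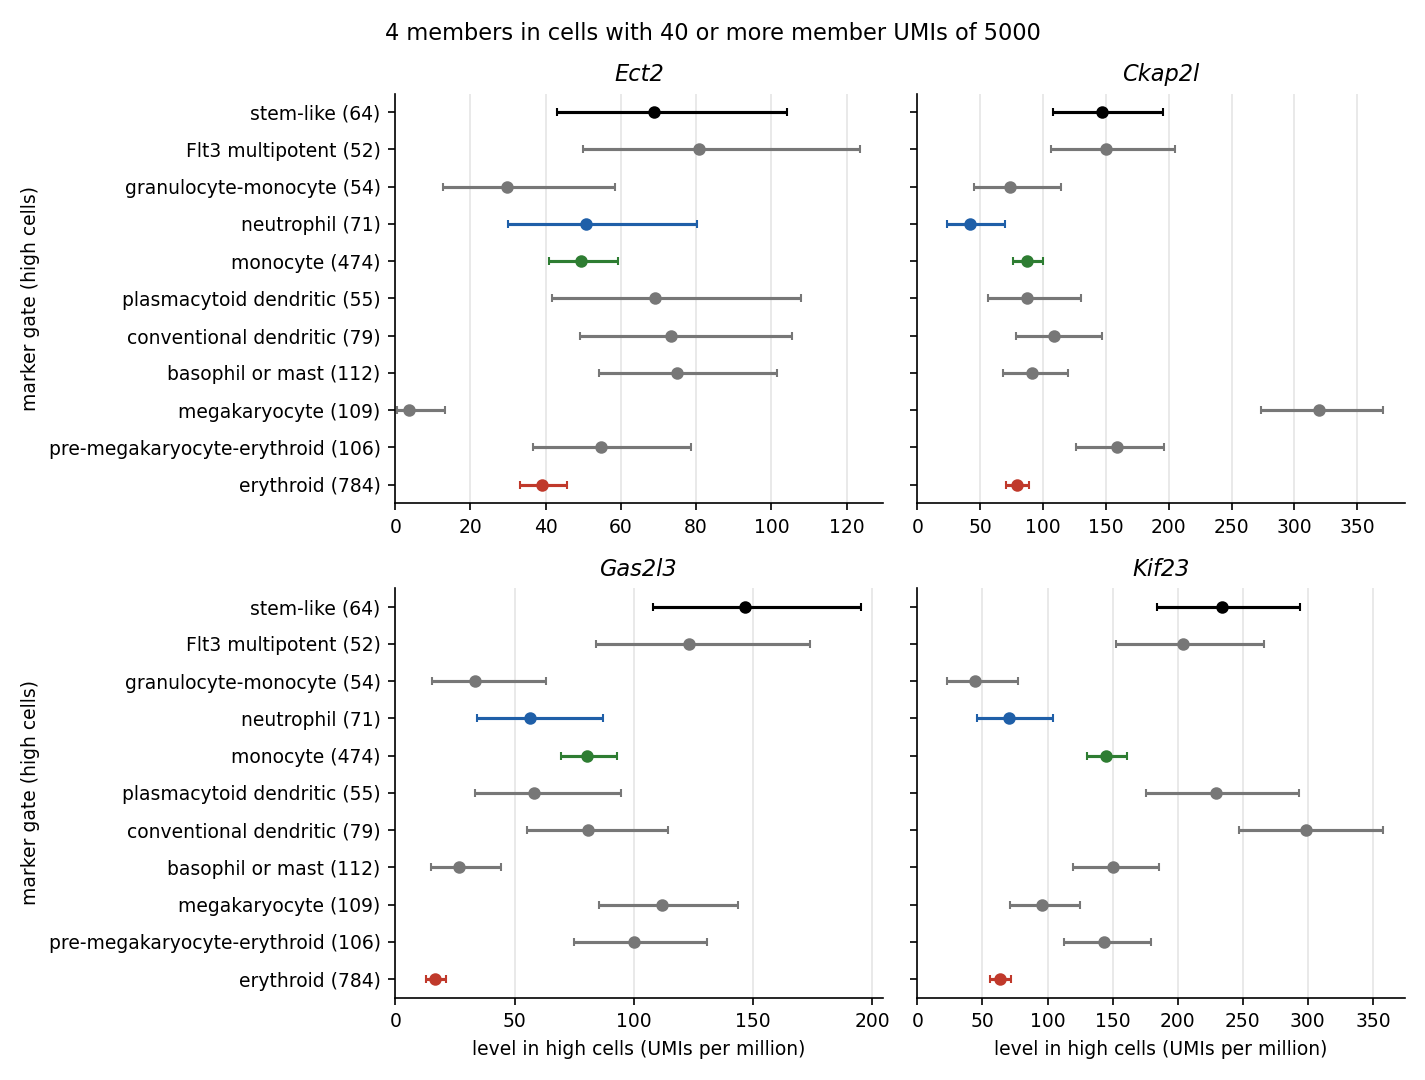
Level of Ect2, Ckap2l, Gas2l3 and Kif23 (CPM) in high cells, those with 40 or more UMIs of the 49 genes among 5000, in 11 gates with exact 95% Poisson intervals; numbers in brackets are high cells. Ect2 is near 0 and Ckap2l highest in the megakaryocyte-like gate, and Gas2l3 and Kif23 are low in the erythroid-like gate.

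High cells of the 2 extreme gates were also set side by side. The high cells were chosen by the summed members, which sets a lower bound on their sum and does not fix it. The sum was 16763 CPM in the high stem-like and 14191 CPM in the high late erythroid-like cells. The ratios below are not corrected for this difference and do not describe the mix of genes alone. Of the 49 members, Gas2l3 stood furthest apart, with 147 CPM in the 64 high stem-like cells and 17.5 CPM in the 435 high late erythroid-like cells (8.41-fold, 5.37 to 13.2). G2e3 (3.16-fold, 2.12 to 4.65), Kif23 (3.02-fold, 2.27 to 3.98) and Cenpf (2.51-fold, 2.13 to 2.95) were also higher in the high stem-like cells. Ccna2 (0.65-fold, 0.48 to 0.86), Cdca3 (0.72-fold, 0.54 to 0.95) and Lbr (0.72-fold, 0.54 to 0.95) were lower there. Hmgb2 (1.05-fold, 0.98 to 1.12) and Tubb4b (0.99-fold, 0.89 to 1.11) had intervals that hold 1, although the sum of the 49 genes was higher in the high stem-like cells. Their part of the sum was thus not the same in the 2 sets.

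The members also differed in how sharply they were kept to the cells that were high in the others. For each member, all thinned cells were ranked by the summed UMIs of the remaining 48 genes. The top 10% of cells held 46.1% of the UMIs of Ube2c (44.9 to 47.3), 46.0% of those of Nusap1, a spindle assembly gene (44.1 to 47.9), and 44.9% of those of Cenpf (43.4 to 46.6). At the other end it held 15.4% of Anp32e (14.7 to 16.2), 17.8% of Cks1b (16.99 to 18.6) and 18.3% of Tmpo (17.5 to 19.2). Ube2c went from 12.98 CPM in the lowest 10% of cells to 805 CPM in the highest, and Anp32e from 116 to 342 CPM. Within the stem-like gate the share was larger than over all cells for 48 of the 49 members, the exception being Gas2l3 (25.1% against 28.8%). It held 90.3% of the Hmmr UMIs (83.7 to 94.9) and 86.3% of the Cenpf UMIs (81.3 to 90.4) in the top 10%, against 24.1% for Anp32e and 21.1% for Lbr, the lowest. Within erythroid-like cells the share was smaller, with 29.7% for Nusap1 (26.3 to 33.3) at the top and 10.4% for Anp32e (9.08 to 11.9) at the bottom. A top 10% can hold a larger share where fewer cells are high, and 7.71% of stem-like, 29.6% of all and 64% of erythroid-like cells were high. The shares therefore do not show whether members are kept more sharply to high cells in one of these sets than in another.

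**Figure D5:**
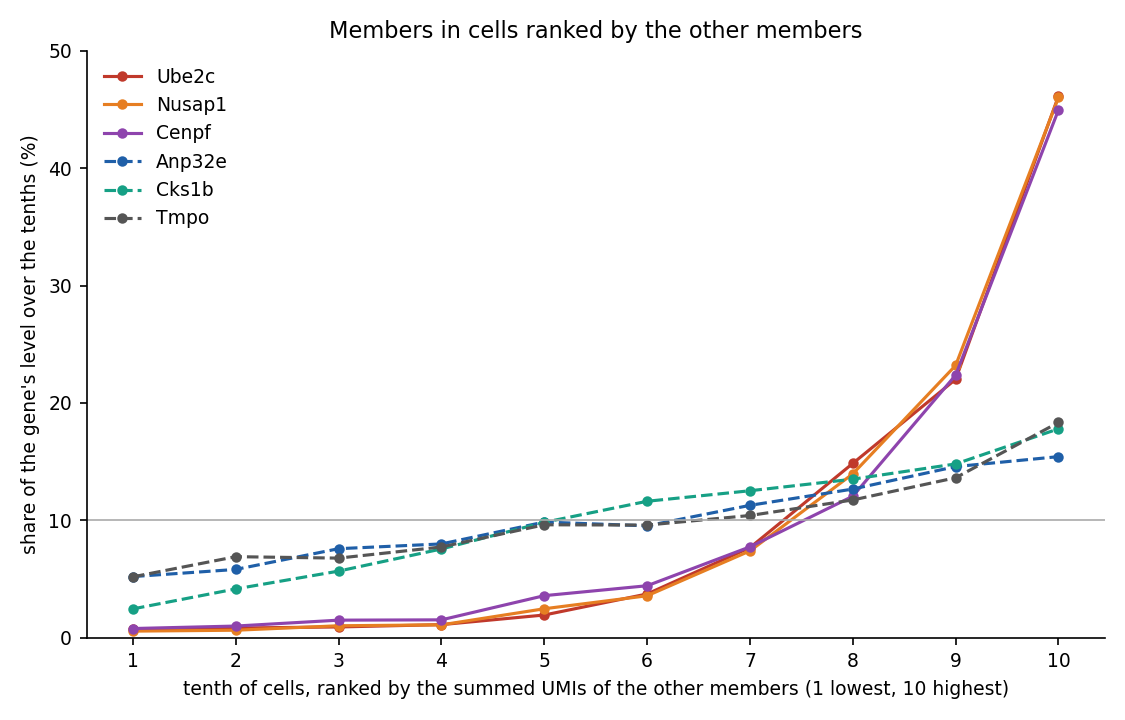
Share of each gene's level that lies in each of 10 equal bins of all thinned cells, with cells ranked by the summed UMIs of the other members; an even spread would give 10% in each (grey line). Ube2c, Nusap1 and Cenpf climb steeply in the last bins, while Anp32e, Cks1b and Tmpo climb slowly.

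Genes that move together late in the cycle are known to share 2 promoter elements, the CCAAT box, bound by NF-Y, and the cell cycle genes homology region, bound by MuvB complexes. RefSeq promoters of 300 bases, from 250 before to 50 after the start, were at hand for 42 of the 49 members (46 promoters, build GRCm38.p6). Aurkb, Dlgap5, Cdc25c, Cdca2, Smc4, Ccna2 and Tpx2 had none in the table used. The letters searched on both strands were CCAAT and, for the homology region, TTTGAA or TTTAAA or TTCGAA. At least 1 of these last 3 was found in 87.0% of the member promoters and in 28.8% of all 32851 promoters. At least 2 CCAAT were found in 60.9% and 11.7%, and both features in 56.5% and 3.33%. The shares are descriptions, a match is not a site of binding, and the promoters of all genes include non-coding genes. Promoters are shown 5′ to 3′ on the gene's strand for the 3 members most kept to the top 10% and for the 2 with a promoter that were least so, with matches on either strand in capitals.
Ube2c, chr2:164769679-164769978, plus strand: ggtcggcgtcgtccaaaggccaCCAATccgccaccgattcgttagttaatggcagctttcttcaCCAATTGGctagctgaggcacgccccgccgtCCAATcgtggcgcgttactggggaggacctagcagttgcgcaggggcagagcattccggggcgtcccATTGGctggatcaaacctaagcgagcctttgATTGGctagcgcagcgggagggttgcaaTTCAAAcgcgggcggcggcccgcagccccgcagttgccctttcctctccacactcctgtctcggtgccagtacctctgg
Nusap1, chr2:119618048-119618347, plus strand: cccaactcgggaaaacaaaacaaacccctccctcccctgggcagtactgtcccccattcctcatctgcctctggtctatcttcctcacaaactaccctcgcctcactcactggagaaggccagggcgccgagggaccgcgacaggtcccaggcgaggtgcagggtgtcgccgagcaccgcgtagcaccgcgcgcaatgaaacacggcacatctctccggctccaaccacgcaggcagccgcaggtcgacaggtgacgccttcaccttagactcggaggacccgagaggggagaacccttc
Cenpf, chr1:189688037-189688336, minus strand: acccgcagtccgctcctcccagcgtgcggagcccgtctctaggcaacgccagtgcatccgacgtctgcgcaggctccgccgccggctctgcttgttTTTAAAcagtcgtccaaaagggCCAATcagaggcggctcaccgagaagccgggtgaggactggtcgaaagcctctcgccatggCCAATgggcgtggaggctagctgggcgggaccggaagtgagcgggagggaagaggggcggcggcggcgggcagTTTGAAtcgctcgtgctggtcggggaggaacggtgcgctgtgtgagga
Cks1b, chr3:89418242-89418541, minus strand: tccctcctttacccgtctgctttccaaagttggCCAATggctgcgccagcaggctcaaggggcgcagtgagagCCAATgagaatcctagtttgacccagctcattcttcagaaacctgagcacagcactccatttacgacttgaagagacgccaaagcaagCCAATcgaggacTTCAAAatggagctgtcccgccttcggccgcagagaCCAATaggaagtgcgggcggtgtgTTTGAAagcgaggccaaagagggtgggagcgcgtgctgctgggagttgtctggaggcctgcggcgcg
Anp32e, chr3:95929007-95929306, plus strand: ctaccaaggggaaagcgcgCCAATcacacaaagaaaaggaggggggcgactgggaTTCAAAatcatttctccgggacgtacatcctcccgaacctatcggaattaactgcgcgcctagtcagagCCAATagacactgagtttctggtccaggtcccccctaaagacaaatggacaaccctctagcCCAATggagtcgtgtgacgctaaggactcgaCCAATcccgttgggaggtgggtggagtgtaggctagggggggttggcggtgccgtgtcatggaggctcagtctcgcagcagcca
Ube2c held 6 CCAAT matches, of which a pair on opposite strands overlaps, and Cks1b and Anp32e held 4 each. Nusap1 held 0 matches of any kind in this window although its UMIs were as concentrated as those of Ube2c. These letters were present in Ube2c and Cenpf, among the most concentrated members, and in Cks1b and Anp32e, among the least.

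The other genes of the same pathway were read from a list of 55 genes, which leaves the members out and includes, for example, Plk1, Knl1, Ncapg and Mybl2. In erythroid-like cells 40 of the 53 genes with enough UMIs were at least 2-fold higher than in stem-like cells (12.9% of all genes) and 1 was lower (28.7%), and their median ratio was 2.98. In neutrophil-like cells the count was 10 of 49 higher (7.52% of all genes) and 2 lower (34.8%), with a median of 1.29. Mybl2, which codes for a transcription factor of late cycle genes, had 51.9 against 6.02 CPM in erythroid-like and stem-like cells (8.62-fold, 5.73 to 13.5), and Plk1, a mitotic kinase, 74.4 against 14.5 CPM (5.15-fold, 3.93 to 6.86). The gene counted as lower was Pimreg, at 3.59 against 11.3 CPM (0.32-fold, 0.18 to 0.54). Cep55, a midbody gene of the last step of cytokinesis, had too few UMIs to be counted, at 1.47 against 8.43 CPM (0.17-fold, 0.074 to 0.37).

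The 41 S-phase genes were set beside the members to see the balance of the 2 parts of the cycle. The members' sum over the S-phase sum was 1.44 (1.39 to 1.48) in stem-like cells, 1.31 (1.28 to 1.34) in neutrophil-like cells, 1.59 (1.57 to 1.61) in erythroid-like cells and 2.13 (2.06 to 2.20) in basophil or mast-like cells. It was highest in conventional dendritic-like cells, at 2.84 (2.71 to 2.96), with 6969 CPM of members and 2458 CPM of S-phase genes. In this gate, 34 of 45 members and 7 of 41 S-phase genes were at least 2-fold above the stem-like level, where 9.39% of all genes were, and 0 members and 3 S-phase genes were at least 2-fold below it (25.0% of all genes). In the late erythroid-like gate, 95.1% of the cells were high in members and also had 19 or more S-phase UMIs, the median of all cells, against 1.93% in the stem-like gate. Among cells of 8000 to 15000 UMIs, the conventional dendritic-like ratio was 2.79 (2.64 to 2.94) and the stem-like ratio 1.03 (0.99 to 1.07).

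Of 10 genes that hold the cycle back, 6 were at least 2-fold lower in erythroid-like than in stem-like cells and 2 were higher, where 28.7% of all genes were lower and 12.9% higher. Cdkn1c, which codes for the CDK inhibitor p57, had 64.3 CPM in stem-like and 0.816 CPM in erythroid-like cells (0.013-fold, 0.004 to 0.030), and Cdkn1a, for p21, 20.2 and 2.61 CPM. Rb1 and Cdkn2c, for the retinoblastoma protein and the inhibitor p18, were higher in erythroid-like cells, at 2.62-fold (2.04 to 3.39) and 3.26-fold (2.29 to 4.76).

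Several limits touch single genes. In GENCODE M21, 11 of the 49 members overlap another gene on the same strand, in most cases a small or predicted RNA, and reads were not checked for these overlaps. Hmgb2, Tubb4b and Anp32e belong to families of closely related genes, and reads that such relatives could share were not checked either. Scrublet marked 3.28% of the cells as doublets, with 3.80% of the high and 3.09% of the other cells, and leaving them out gave 3.65 for the erythroid-like over stem-like ratio.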

How the data were processed

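The authors deposited 1 matrix of raw UMI counts per gene and cell, made per the study's methods with Cell Ranger 6.0.2 on an mm10 reference from a 10x 3′ library. Labels that describe a bulk RNA kit were not followed. The study's cell filter was applied, which asks for UMIs above 1000 and below 50000, detected genes above 1000 and below 6500, and a mitochondrial share below 7%. Each was thinned without replacement to 5000 UMIs (seed 1, numpy 2.4.6), and intervals are exact at 95% (scipy 1.17.1). Ratios over genes needed 50 UMIs over both gates and were called from 2-fold. The cell type markers carry no member, but gate thresholds were set after seeing the data, and cells near a threshold, such as 274 stem-like cells within 20% of it, could change gate. The members and lists were chosen with earlier results of these data known. Genes named in full are the 3 most abundant of each role, the pairs Cks1b and Cks2, Ccnb1 and Ccnb2, Aurka and Aurkb, and the 3 highest and lowest ratios of a comparison; others, and the gate-specific genes, were named after their values were seen. Doublets were called with Scrublet (scanpy 1.11.5) and kept. Scripts were tested on simulated data. Alternatives varied depth, seed, filter, gates, fold and weighting.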

Additional observations from a re-analysis of the deposited data

Results flagged for a closer look

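The cell filter leaves out 213 barcodes at or above its upper limits, and these were examined because they enter no comparison. At full depth the 49 genes had 10105 CPM (10048 to 10162) in them, against 7224 CPM (7211 to 7238) in the cells kept. Of these barcodes, 131 fell in erythroid-like gates, where the level was 10842 CPM (10769 to 10916), against 10492 CPM (10459 to 10524) in the erythroid-like cells kept. Doublets were not separated from large cells among them. The filter also left out 908 barcodes within the upper limits but at or above the mitochondrial limit, which had 6065 CPM (5983 to 6148) at full depth.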

How the results depend on the processing

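No paired analysis was possible because there is 1 library, and no replicate could be left out. Of 1415 alternative values for 133 results, 780 were labelled the same, 630 moved and 5 turned, and the cause was not tested. The same meant inside the interval of the reported value or, for counts of members, within a fixed fold. Turned meant a ratio that crossed 1 where the reported interval left out 1. Other crossings of 1, such as those of the neutrophil late to early ratio, were labelled moved. Of 132 alternative ratios to the stem-like gate, 131 were above 1. Thinning to 10000 UMIs gave a stem-like level of 5122 CPM, 20.6% high cells and a members to S-phase ratio of 1.55; the neutrophil-like ratio turned to 0.903, and Ckap2 (0.957) and Psrc1 (0.748) turned in erythroid-like over stem-like cells. There the erythroid-like level was 10360.5 CPM, the ratio 2.02, the number of members higher 21, the high share 68.1% and the late to early ratio 1.96. Without thinning, the stem-like level was 3717 CPM and its members to S-phase ratio 1.62, the neutrophil-like ratio 1.30, the erythroid-like level 10492 CPM, its ratio 2.82 and its late to early ratio 1.91. Seed 2 gave 2716 CPM and 10141 CPM and a ratio of 3.73. At 3000 UMIs the neutrophil-like ratio was 1.70 and its late to early ratio 1.02.

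A stricter cell filter gave a stem-like level of 3564 CPM, 12.7% high cells, a members to S-phase ratio of 1.49, a neutrophil-like ratio of 1.31, an erythroid-like ratio of 2.81 and late to early ratios of 2.12 (erythroid) and 1.004 (neutrophil). Gates read from thinned counts gave 2453 CPM in stem-like cells, a neutrophil-like ratio of 1.91, 10495 CPM, 4.28 and 69.0% high cells in the erythroid-like gate, and late to early ratios of 1.80 (erythroid), 1.19 (monocyte) and 0.922 (neutrophil). Stricter gates gave 2039.5 CPM and 3.91% high cells in the stem-like gate, a neutrophil-like ratio of 2.27, 10138 CPM and 4.97 in the erythroid-like gate, and a monocyte late to early ratio of 1.22; Cenpf turned to 1.08 in neutrophil-like over stem-like cells.

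Leaving out Hmgb2, Tubb4b and Cks2 gave 1819 CPM in stem-like cells, a neutrophil-like ratio of 1.47, 6483 CPM and 31.0% high cells in the erythroid-like gate, and late to early ratios of 2.26 (erythroid) and 0.918 (neutrophil). With equal weights the median member had 28.9 CPM in stem-like and 121 CPM in erythroid-like cells, with ratios of 4.02 (erythroid-like) and 1.40 (neutrophil-like) and late to early ratios of 2.14 and 0.890. Without haemoglobin, mitochondrial and ribosomal protein genes in the denominator the levels were 4324 and 15529.9 CPM and the monocyte late to early ratio 1.28. A fold of 4 gave 25 members in the erythroid-like comparison, and a cut of 30 or 50 UMIs gave 81.6% and 46.9% high erythroid-like cells. In depth-matched cells, chosen after seeing the data, the stem-like level was 2160.0 CPM with 3.72% high cells and a members to S-phase ratio of 1.03; that ratio turned to 0.887 in megakaryocyte-like cells. The erythroid-like gate there had 6560 CPM, a ratio of 3.04, 28 members higher, 30.7% high cells and a late to early ratio of 2.94, with 1.12 for monocyte-like and 0.948 for neutrophil-like cells.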

Other observations

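Cells outside every gate (894 thinned) had 4495 CPM (4433 to 4558) of the 49 genes and 15.9% high cells, and cells that met several gates (319 thinned) had 6841 CPM (6714 to 6971) and 36.4% high cells.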
